A study of Mus musculus with 24 samples.

Results

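The 10 genes described here encode core components of the ribbon synapse, and they are followed across the peak lists of a CUT&RUN study of mouse retina. They were taken by symbol from 21887 protein-coding genes on the main chromosomes, and all 10 were found in the RefSeq gene table of GRCm38.p6. Bsn, Pclo, Ctbp2 and Rims2 encode scaffold proteins, Cacna1f, Cacna2d4 and Cabp4 encode the calcium channel and its regulator, and Syp, Stx3 and Unc13b encode proteins of the vesicle and of fusion. A peak was assigned to a gene when it shared at least 1 base with the gene or with the 5 kb on either side of it.

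The ribbon is a protein plate at the presynaptic membrane of photoreceptors and bipolar cells that holds synaptic vesicles close to clustered calcium channels. It allows glutamate to be released continuously at a rate that follows the membrane potential, where a conventional synapse releases in response to action potentials. The synapses form in the postnatal mouse retina as photoreceptors and bipolar cells mature.

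CUT&RUN cuts and releases the DNA next to an antibody-bound protein in isolated nuclei, and the released fragments are sequenced. Whole retinas of wild-type mice were taken at postnatal day 2 (P2) and day 17 (P17), and 600000 nuclei went into each reaction. The antibodies were against SOX8, against SOX9, against trimethylated lysine on histone H3 (H3K4me3, a mark of active gene starts), against acetylated lysine on histone H3 (H3K27ac, a mark of active starts and enhancers) and an IgG control. The 24 libraries comprised, at each age, 4 for SOX8 made with 2 antibodies and 2 for each other target. All groups were wild type, and the study holds no mutant or treated group. SOX8 and SOX9 belong to the same family of DNA-binding proteins, and SOX9 is known in the retina from progenitor cells and Müller glia. Neither of these cell types makes ribbon synapses.

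The measurements are intervals in 8 peak lists, 1 per age for each target, and no list gives a value per library. No difference between ages could therefore be tested against the spread between replicates, and every difference below is a description of the lists. The background in the IgG libraries was not analysed here, and the read depth behind each list is unknown. The SOX8 lists held 2653 peaks at P2 and 2400 at P17, and the SOX9 lists held 5476 and 2855. The H3K4me3 lists were of similar size, with 9134 and 9629 peaks, whereas the H3K27ac list was far longer at P2, with 287845 peaks, than at P17, with 29909. For that reason the H3K27ac ages are compared below by the share of a gene that is covered, and even that share carries the difference in how much was called. In whole retina, fewer cells of a type and less of a mark in each cell cannot be told apart.

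All 10 genes had a peak in both H3K4me3 lists and in both H3K27ac lists. The share of all 21887 genes with a peak was 49.3% for H3K4me3 at P2 and 50.9% at P17, and it was 81.8% for H3K27ac at P2 and 57.0% at P17. At P2, the peaks of both marks counted for Cacna1f lay outside it, at the start of Syp. The P2 H3K4me3 peak counted for Cabp4 lay outside it, at Coro1b. The transcription factor lists separated the members. SOX8 peaks lay at 1 member at P2, Ctbp2, against 15.1% of all genes. At P17 they lay at 3 members, Ctbp2, Cacna2d4 and Cabp4, against 13.0% of all genes. SOX9 peaks lay at 5 members at P2 (Bsn, Ctbp2, Rims2, Cacna2d4 and Unc13b), against 27.7% of all genes. The P2 SOX9 peaks at Bsn, Cacna2d4 and Unc13b held a start of a neighbour, Apeh, Lrtm2 and Fam214b in that order. At P17 SOX9 peaks lay at 6 members (Bsn, Ctbp2, Rims2, Cacna2d4, Cabp4 and Stx3), against 15.7% of all genes. Among genes of at least 100 kb the SOX9 shares were 36.8% at P2 and 17.1% at P17. Of the 5 members that long, 4 had a SOX9 peak at P2 and 3 at P17. Cabp4 and Stx3 had a SOX9 peak at P17 and none at P2, a pattern held by 4.35% of all genes. Unc13b had a SOX9 peak at P2 and none at P17, as did 16.4% of all genes. Pclo, Cacna1f and Syp had no SOX8 or SOX9 peak in any list.

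**Figure D1:**
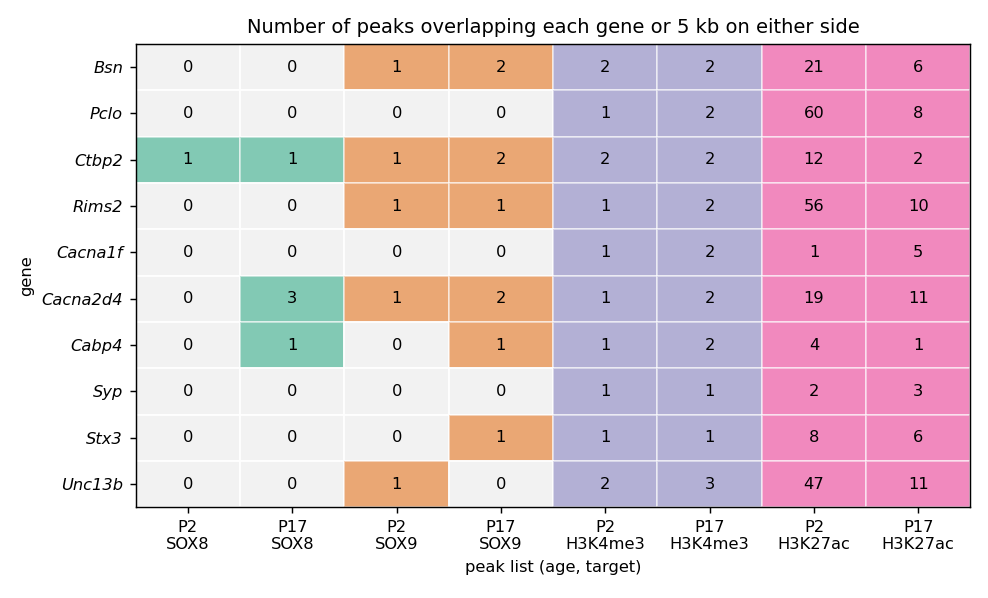
Number of peaks (in the cells) that overlap each ribbon synapse gene or 5 kb on either side of it, with genes in rows and the 8 lists (age and target) in columns; coloured cells hold at least 1 peak. All 10 genes are filled for both histone marks, and Pclo, Cacna1f and Syp are empty for SOX8 and SOX9.

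For H3K4me3, peaks found at a single age lay on the P17 side. At 6 members (Pclo, Rims2, Cacna1f, Cacna2d4, Cabp4 and Unc13b) the P17 list held an H3K4me3 peak that overlapped no P2 peak, where 7.51% of all genes had such a peak. No member had an H3K4me3 peak found at P2 alone, where 4.74% of all genes did, so that count was near the background. Of the 18 H3K4me3 peaks at the members at P17, 12 overlapped a P2 peak and 6 did not. Of the whole P17 H3K4me3 list, 14.4% of the peaks overlapped no P2 peak. Long genes offer more room for a peak, and 5 of the members (Pclo, Ctbp2, Rims2, Cacna2d4 and Unc13b) are at least 100 kb long. Among the 2429 genes of that length, 15.2% had an H3K4me3 peak at P17 alone, and 4 of the 5 members did. A peak at P2 alone lay at 8.36% of these genes and at 0 of the 5 members.

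The promoter sequences of the members differed in how rich they were in CG pairs, the dinucleotide that is dense in the CpG islands of many gene starts. The 4 windows below are the 250 bases before a RefSeq start, written 5′ to 3′ on the gene's strand, from RefSeq on GRCm38.p6. They are shown because their H3K4me3 differed in form. In Bsn it was present at both ages and not among the widest, and in Cacna1f it was present at P17 alone. In Stx3 and Ctbp2 it was among the widest in the list at P17. The ratio of its width at P17 to that at P2 was 1.62 at Bsn, 2.51 at Stx3 and 1.46 at the Ctbp2 start shown. That Ctbp2 peak was already wide at P2, with 4.77% of the P2 list wider. Capitals mark each CG pair in Bsn, Cacna1f and Stx3. In Ctbp2 they mark GGATTA, the reverse complement of TAATCC, so the match lies on the strand opposite to the one printed. TAATCC is the core recognised by the photoreceptor factors CRX and OTX2.
Bsn, chr9:108190384-108190633, minus strand: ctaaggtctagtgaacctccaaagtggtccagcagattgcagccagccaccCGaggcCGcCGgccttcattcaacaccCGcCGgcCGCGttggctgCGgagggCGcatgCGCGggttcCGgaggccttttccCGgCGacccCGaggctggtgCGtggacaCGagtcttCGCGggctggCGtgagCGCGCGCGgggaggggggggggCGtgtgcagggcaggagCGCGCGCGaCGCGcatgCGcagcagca
Cacna1f, chrX:7606853-7607102, plus strand: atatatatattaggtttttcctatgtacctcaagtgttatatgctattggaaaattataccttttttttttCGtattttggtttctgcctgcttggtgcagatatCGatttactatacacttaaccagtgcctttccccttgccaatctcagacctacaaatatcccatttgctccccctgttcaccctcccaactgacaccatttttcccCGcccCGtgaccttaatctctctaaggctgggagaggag
Stx3, chr19:11819404-11819653, minus strand: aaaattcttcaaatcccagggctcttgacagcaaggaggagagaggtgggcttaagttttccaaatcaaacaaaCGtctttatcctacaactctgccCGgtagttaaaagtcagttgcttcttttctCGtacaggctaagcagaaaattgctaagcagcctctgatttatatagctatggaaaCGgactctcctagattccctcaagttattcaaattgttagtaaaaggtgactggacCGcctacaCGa
Ctbp2, chr7:133015248-133015497, minus strand: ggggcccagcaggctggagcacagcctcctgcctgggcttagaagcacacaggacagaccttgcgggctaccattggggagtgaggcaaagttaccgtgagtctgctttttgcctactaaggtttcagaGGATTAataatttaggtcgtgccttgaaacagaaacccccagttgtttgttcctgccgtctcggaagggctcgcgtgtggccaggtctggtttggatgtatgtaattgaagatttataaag

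The Bsn window held 32 CG pairs at a GC content of 71.6%, and the Pclo window held 25 at 61.2%. Unc13b had 16 CG pairs and Syp 11. The inner Ctbp2 start had 7, Stx3 had 6, and Cacna1f had 4 at a GC content of 41.6%. Over 21255 such windows of the genome the median was 10 CG pairs. The 8586 windows whose start lay in an H3K4me3 peak at both ages had a median of 19, the 1026 marked at P17 alone had 11, and the 10899 marked at neither age had 3. Cacna1f, the member whose RefSeq start was marked at P17 alone, had fewer CG pairs than the median of its class. Bsn and Pclo, marked at both ages, were above the median of theirs. Unc13b, Syp, Stx3 and the inner Ctbp2 start were also marked at both ages and lay below that median. The other Ctbp2 start had 2 CG pairs and no H3K4me3 peak at either age.

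The 8 member windows (7 genes, 2 starts of Ctbp2) were searched on both strands for 3 motifs. TAATCC lay in the inner Ctbp2 window, 121 bases before the start, and in Syp, 246 bases before the start, against 5.82% of all windows. The SOX core ACAAAG lay in 1 member window, that of the other Ctbp2 start, against 14.9% of all windows. The SOX core ACAATG lay in none of the 8, against 9.35% of all windows. These are matches of letters in a short window, not binding sites, and most SOX peaks described below lay outside these windows. Rims2, Cacna2d4 and Cabp4 are named without a promoter sequence.

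Bsn, on chromosome 9 (GRCm38, 9:108096022-108190419, 94.4 kb, minus strand), encodes Bassoon, the large scaffold protein that anchors the ribbon to the active zone. The H3K4me3 peak over its RefSeq start measured 2730 bp at P2 (9:108188677-108191406) and 4427 bp at P17 (9:108187243-108191669), a ratio of 1.62. Among all 8139 pairs of H3K4me3 peaks that overlapped 1 to 1 between the ages, 5.58% had a higher ratio, so the start of Bsn lay among the pairs that widened most. No SOX8 or SOX9 peak lay there. The SOX9 peak found at both ages, 3137 bp at P2 and 5470 bp at P17, lay at the opposite end of the gene and held the start of the neighbouring gene Apeh. A further SOX9 peak was found at P17 alone, at 9:108101748-108111761, inside Bsn. It was 10014 bp wide, and 6.69% of the P17 SOX9 list was wider. Of the 9 SOX9 peaks at members at P17 it was the one that overlapped neither histone mark at that age. How common such peaks are in the whole list was not computed. At P2 the same stretch lay under an H3K27ac peak of 15093 bp.

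Pclo, on chromosome 5 (5:14514906-14863465, 349 kb, plus strand), encodes Piccolo, a scaffold related to Bassoon, of which photoreceptors make a short form. Its start carried H3K4me3 at both ages, 3250 bp at P2 and 3717 bp at P17. A further H3K4me3 peak of 5766 bp was found at P17 alone at 5:14720139-14725904, centred 208 kb inside the gene. It lay under a P17 H3K27ac peak of 23979 bp (5:14709063-14733041), and 3.27% of the P17 H3K27ac list was wider. P2 H3K27ac peaks covered 32.9% of the H3K4me3 interval. No RefSeq start of the table lay inside it.

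Rims2, on chromosome 15 (15:39198286-39684372, 486 kb), encodes a RIM protein, which links vesicles and calcium channels at the active zone. At its lower-coordinate end it carried H3K4me3 at both ages, 4928 bp at P2 and 4330 bp at P17. A SOX9 peak overlapped it at both ages, 2434 bp at P2 (15:39197386-39199819) and 3258 bp at P17 (15:39196455-39199712). Like Pclo, Rims2 had a second H3K4me3 peak far inside the gene at P17 alone. It measured 6379 bp (15:39433036-39439414), was centred 238 kb from the lower end, and lay under an H3K27ac peak of 21624 bp. No P2 H3K27ac peak touched that interval. Across all genes, 1.44% had an H3K4me3 peak at P17 alone centred more than 5 kb inside both gene ends, and the members with one were these 2. Among genes of at least 100 kb the share was 6.22%, and 2 of the 5 long members had such a peak.

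**Figure D2:**
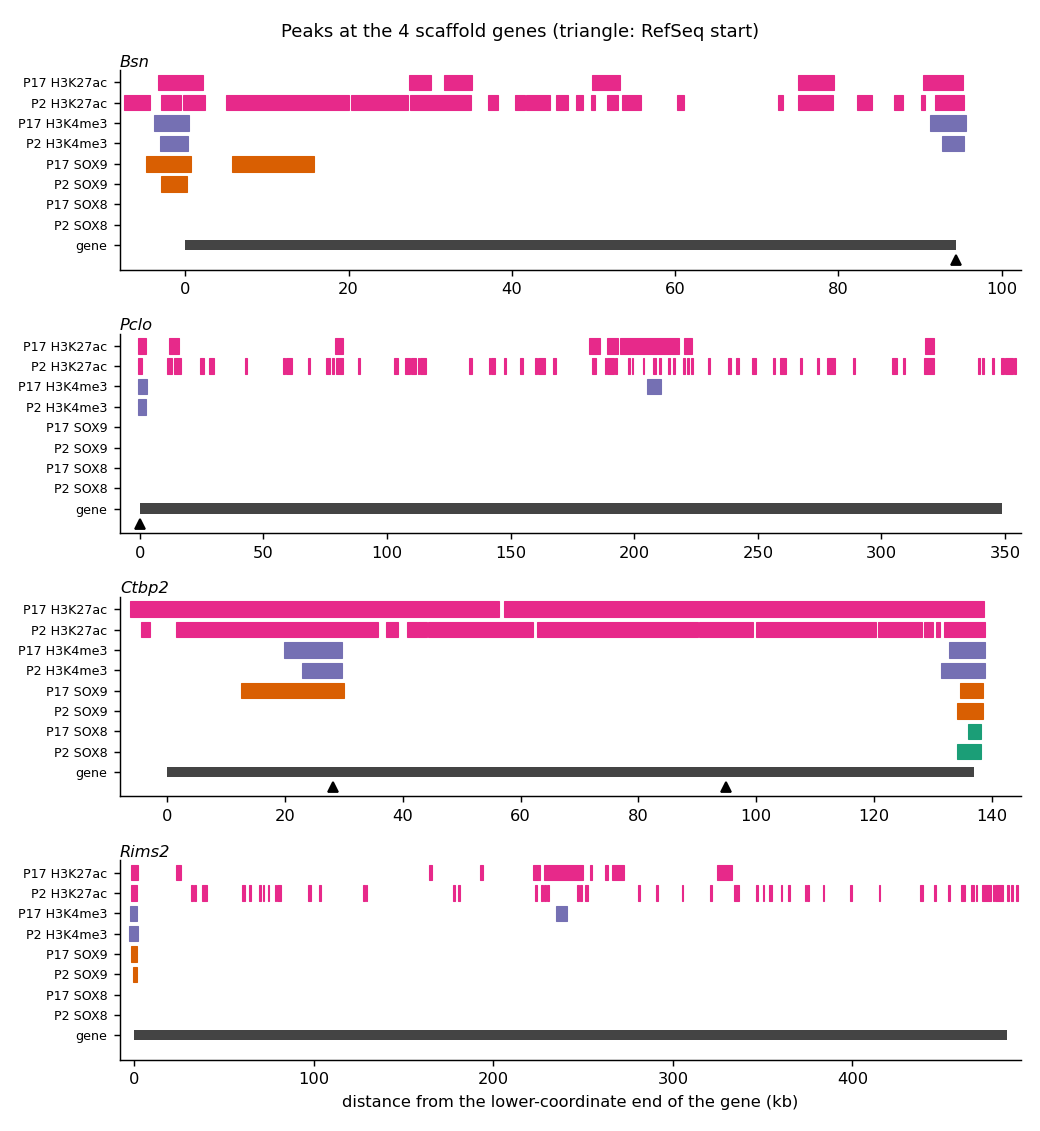
Peaks at the 4 scaffold genes, drawn to scale along each gene, with distance in kb from the gene's lower-coordinate end; each row is a list (age and target), each bar a peak, the grey bar the gene, and triangles mark RefSeq starts where the table gives them. Pclo and Rims2 show an H3K4me3 peak deep inside the gene in the P17 row alone, and Ctbp2 shows H3K27ac over nearly its whole length at both ages.

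Ctbp2, on chromosome 7 (7:132986998-133124009, 137 kb, minus strand), encodes the transcriptional corepressor CtBP2 and, from an alternative start, RIBEYE, the main structural protein of the ribbon. The promoter table lists 2 starts for it, at 133015247 and at 133081860, and does not say which product belongs to which. The inner start at 133015247 carried H3K4me3 of 6679 bp at P2 (7:133009951-133016629) and 9765 bp at P17 (7:133006911-133016675). The P17 peak ranked 163 by width among 9629. At the upper end of the gene the order was the opposite, with 7579 bp at P2 and 6112 bp at P17. That upper end also carried SOX8 and SOX9 at both ages, at widths from 2245 bp (SOX8, P17) to 4459 bp (SOX9, P2), and it overlaps the predicted gene Gm35364. Over the inner start, SOX9 was called at P17 alone, in a peak of 17498 bp (7:132999571-133017068). It ranked 21 among the 2855 SOX9 peaks at P17, and 0.701% of that list was wider. It was the widest SOX peak at any member, and the only one that held a member's RefSeq start as the table gives it.

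Ctbp2 also stood out in H3K27ac. Peaks covered 90.2% of the gene and its flanks at P2 and 97.1% at P17. At P17 this cover came from 2 peaks of 62659 bp and 81423 bp, which ranked 149 and 74 by width among 29909. The median cover over all genes, those without a peak included, was 20.9% at P2 and 4.85% at P17.

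Of the channel genes, Cacna1f encodes the pore-forming subunit of the calcium channel of photoreceptor ribbon synapses and lies on the X chromosome (X:7607103-7635196, 28.1 kb, plus strand). Its RefSeq start had no H3K4me3 peak at P2. At P17 a peak of 3410 bp (X:7606223-7609632) covered it, under an H3K27ac peak of 7147 bp. That H3K27ac peak also held the start of the neighbouring gene Ccdc22. H3K27ac covered 4.97% of the gene and its flanks at P2, in 1 peak, and 56.2% at P17, in 5 peaks. The P17 peaks include the peak at the start of Syp, outside the gene. No P2 H3K27ac peak touched the interval that carried H3K4me3 at P17. The H3K4me3 peak and the H3K27ac peak counted for Cacna1f at P2 both lay outside it. They lay at the start of Syp, the next gene, and reached into the 5 kb flank of Cacna1f.

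Cacna2d4, on chromosome 6 (6:119236524-119352407, 116 kb), encodes an accessory subunit of the same channel. Its lower-coordinate end had no H3K4me3 peak at P2 and one of 6724 bp at P17 (6:119235462-119242185). Both factors were called there at P17, SOX8 in a peak of 2310 bp (6:119235071-119237380) and SOX9 in a peak of 5980 bp (6:119237399-119243378). Neither had a peak there at P2. The H3K27ac at that end was already present at P2, since P2 peaks covered 100% of the interval. The other SOX peaks at Cacna2d4 lay near the start of Lrtm2, a gene inside its span. There SOX9 measured 3570 bp at P2 and 11422 bp at P17, and SOX8 appeared at P17 in peaks of 3904 bp and 2302 bp. With 3 SOX8 and 2 SOX9 peaks at P17, Cacna2d4 had the most SOX peaks of the 10 genes.

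Cabp4, on chromosome 19 (19:4135423-4144080, 8.66 kb), encodes a calcium-binding protein that tunes the channel. No H3K4me3 peak touched the gene at P2. At P17 a peak of 9534 bp (19:4134108-4143641) lay over it and overlapped the neighbouring gene Gpr152. That peak ranked 170 by width among 9629. A P17 SOX9 peak of 7255 bp (19:4137797-4145051) overlapped that H3K4me3 peak and also reached into Gpr152. The P17 SOX8 peak counted for Cabp4 lay outside it, 2.25 kb from the nearest end, at the gene Coro1b. H3K27ac covered 51.9% of the window at P2. At P17 it covered 100%, under a peak of 64020 bp (19:4093526-4157545) that ranked 142 by width and spanned 9 coding genes, so that this mark cannot be assigned to Cabp4 alone.

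The 3 channel genes were alike in the H3K4me3 lists: at P2 their windows held H3K4me3 at a neighbour (Syp, Lrtm2 or Coro1b), and at P17 a peak overlapped a gene end of their own. Among all genes, 43.8% had an H3K4me3 peak within 1 kb of either end at P2 and 45.2% at P17. Of the members, 6 had one at P2 (Bsn, Pclo, Ctbp2, Rims2, Syp and Stx3) and all 10 had one at P17. The channel genes and Unc13b made up the difference. At Unc13b the end peak at P17 held a start of Fam214b, and the RefSeq start of Unc13b itself was marked at both ages.

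**Figure D3:**
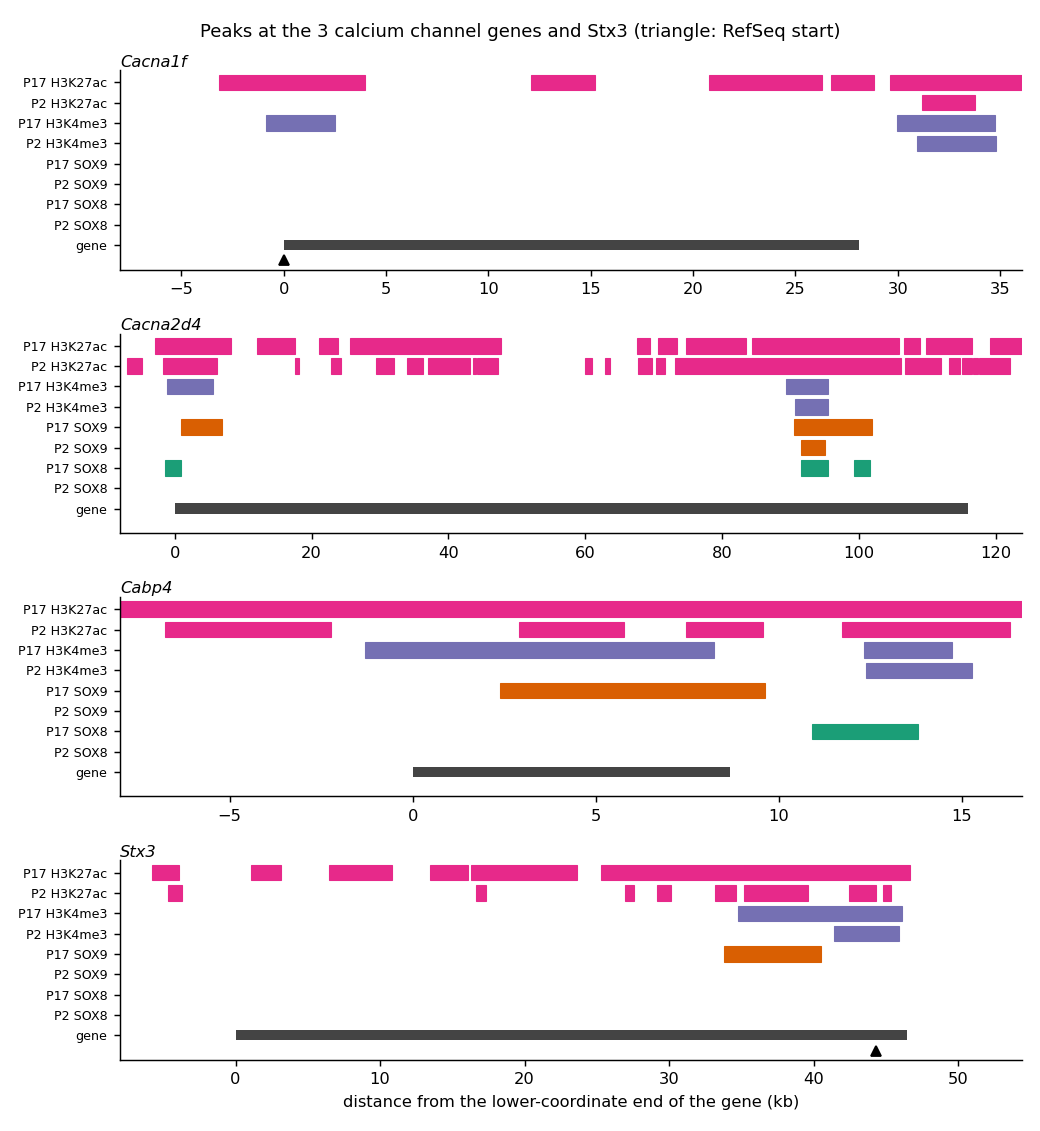
Peaks at the 3 channel genes and Stx3, drawn to scale along each gene, with distance in kb from the gene's lower-coordinate end; each row is a list (age and target), each bar a peak, the grey bar the gene, and triangles mark RefSeq starts where the table gives them. The H3K4me3 row at P17 has a bar at the lower end of Cacna1f, Cacna2d4 and Cabp4 where the P2 row has none, and at Stx3 the P17 SOX9 bar lies under the part of the H3K4me3 bar that the P2 row lacks.

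Of the vesicle and fusion genes, Syp encodes synaptophysin, a membrane protein of synaptic vesicles, and follows Cacna1f on the X chromosome (X:7638580-7653256, 14.7 kb, plus strand). Its start carried H3K4me3 at both ages, 3876 bp at P2 and 4819 bp at P17. H3K27ac covered 13.2% of the gene and its flanks at P2 and 55.5% at P17, which is close to the value of Cacna1f at P17. The windows of these 2 genes overlap, so they share peaks and are not separate observations. Few SOX peaks were called on the X chromosome: 1.04% of its 966 genes had a SOX9 peak at P17 and 4.97% at P2, so most genes of that chromosome had none, like Syp and Cacna1f. H3K4me3 lay at 31.5% of the X genes at P17.

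Stx3, on chromosome 19 (19:11775118-11821569, 46.5 kb, minus strand), encodes syntaxin-3, the membrane fusion protein that ribbon synapses use in place of the syntaxin of conventional synapses. Its start carried the largest difference in H3K4me3 width of any member. The peak measured 4500 bp at P2 (19:11816513-11821012) and 11309 bp at P17 (19:11809899-11821207), a ratio of 2.51. Of all 8139 pairs, 0.614% had a higher ratio, and the P17 peak ranked 102 by width. The added length ran into the gene. A P17 SOX9 peak of 6703 bp (19:11808906-11815608) lay over that added part, with its near edge 3795 bp from the RefSeq start. It overlapped the P17 H3K4me3 peak and not the P2 one, and no SOX9 peak lay at Stx3 at P2. H3K27ac covered 20.6% of the window at P2 and 68.9% at P17.

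Unc13b, on chromosome 4 (4:43046193-43264873, 219 kb, plus strand), encodes a Munc13 protein, which primes vesicles for release. It differed from the others in the direction of SOX9. A SOX9 peak of 3017 bp (4:43044999-43048015) lay at its lower end and at a start of Fam214b at P2, with no H3K4me3 peak there. At P17 the SOX9 list had no peak at Unc13b, and an H3K4me3 peak of 3860 bp (4:43043759-43047618) was called over that same end. The H3K4me3 peak at its RefSeq start, 12.8 kb further in, measured 3463 bp at P2 and 5861 bp at P17, a ratio of 1.69.

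The H3K4me3 peaks present at both ages gave 12 pairs at the members, and 8 of them were wider at P17. The share of wider pairs over all 8139 pairs was 57.9%, so the member count was near it. The median ratio of width at P17 to width at P2 was 1.26 at the members and 1.04 over all pairs, whose quartiles were 0.895 and 1.23. The 4 narrower pairs were the upper end of Ctbp2 (0.806), Rims2 (0.879), and the peaks at the neighbours Fam214b (0.815) and Coro1b (0.837). The pairs that held a RefSeq start of a member were those of Bsn, Pclo, the inner Ctbp2 start, Syp, Stx3 and Unc13b. Each of these was wider at P17, from 1.14 at Pclo to 2.51 at Stx3. The share of wider pairs among all pairs at gene starts was not computed. Rims2 (0.879) is left out here because its RefSeq start is not given. The upper end of Ctbp2 (0.806) is left out too, since no listed RefSeq start lies there. It is nonetheless the upstream end of this minus-strand gene. The other wider pairs lay at the starts of the neighbours Apeh (1.27) and Lrtm2 (1.29).

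**Figure D4:**
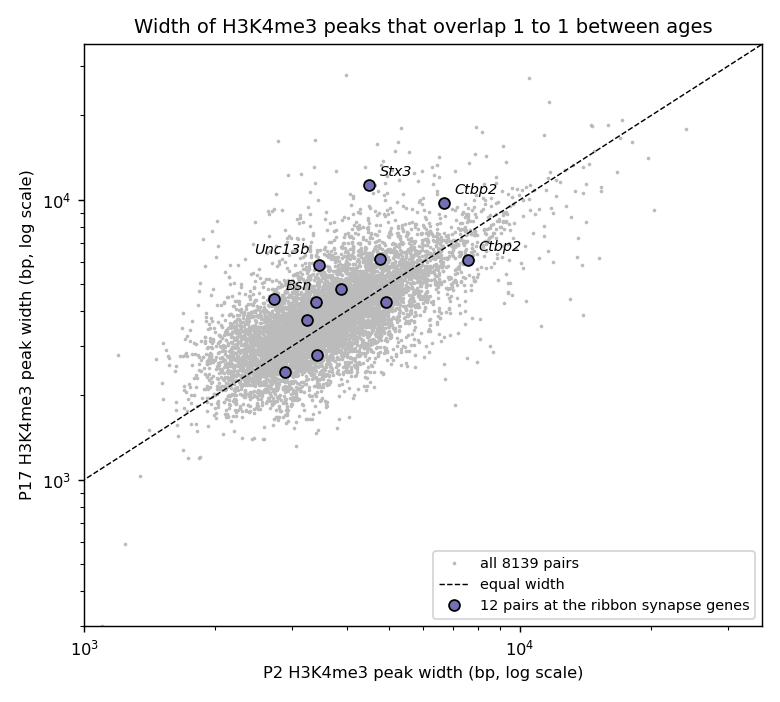
Width in bp of each pair of overlapping H3K4me3 peaks at P2 (horizontal, log axis) and P17 (vertical, log axis); grey points are all 8139 pairs, coloured points the 12 pairs at ribbon synapse genes, and the line marks equal width. Stx3, at 4500 bp and 11309 bp, lies farthest above the line among the coloured points.

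H3K27ac cover of the gene and its flanks was larger at P17 than at P2 at 6 of the 10 members, against 20.0% of all genes. These 6 were Ctbp2, Cacna1f, Cacna2d4, Cabp4, Syp and Stx3. At Bsn the cover was 57.4% at P2 and 23.4% at P17, at Pclo 22.3% and 14.1%, at Rims2 12.8% and 10.7%, and at Unc13b 39.4% and 32.2%. By group, cover was larger at P17 at 1 of the 4 scaffold genes, at all 3 channel genes, and at 2 of the 3 vesicle and fusion genes. The scaffold count was near the share of all genes, and the cover of Cabp4 came from the peak that spanned 9 coding genes. The groups also differed in gene length. Rims2, Pclo and Unc13b, the longest members (486, 349 and 219 kb), had less cover at P17. Cabp4, Syp, Cacna1f and Stx3, the shortest (8.66, 14.7, 28.1 and 46.5 kb), had more. Between them, Bsn (94.4 kb) had less, and Ctbp2 (137 kb) and Cacna2d4 (116 kb) had more. Whether length or role goes with the difference was not tested. The windows of Cacna1f and Syp share peaks. The member median was 30.9% at P2 and 55.8% at P17, where the median of all genes was 20.9% and 4.85%. The medians of all genes include genes without an H3K27ac peak, which have no cover. A peak lay at 81.8% of all genes at P2 and at 57.0% at P17, and at all 10 members. The median among genes with a peak was not computed. The members had 229 distinct H3K27ac peaks at P2 and 61 at P17, and the median width at P17 was 4366 bp against 3268 bp in the whole list.

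**Figure D5:**
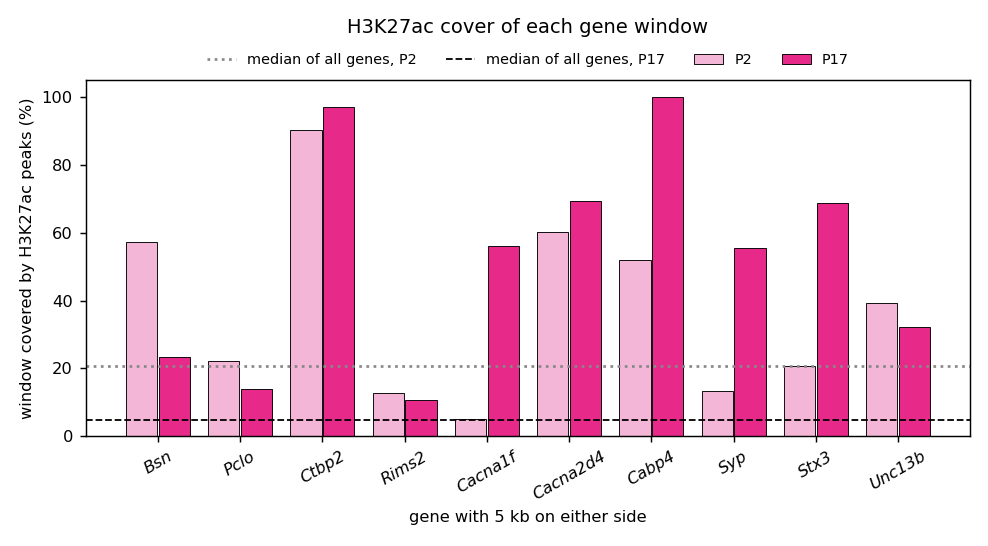
Share of each gene with its 5 kb flanks that H3K27ac peaks cover (percent, vertical axis from 0) at P2 and P17 for the 10 genes; horizontal lines mark the median of all genes at each age. Cacna1f, Syp, Stx3 and Cabp4 stand much higher at P17 than at P2, and Bsn stands lower.

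More SOX9 intervals were called at the members at P17 than at P2. At P2 there were 5 distinct SOX9 peaks, with a median width of 3137 bp, and 4 of them overlapped a P17 peak. Of the whole P2 SOX9 list, 68.9% of the peaks overlapped no P17 peak. At P17 there were 9, from 3258 bp to 17498 bp with a median of 6703 bp, and 5 overlapped no P2 peak. The whole SOX9 list was also wider at P17, with a median of 5336 bp against 2668.5 bp at P2. The 5 P17 peaks without a P2 partner were the inner Bsn peak, the inner Ctbp2 start, the lower end of Cacna2d4, Cabp4 and Stx3. H3K4me3 of the same age overlapped 8 of the 9, the inner Bsn peak being the exception. The overlap with H3K4me3 was not computed for the whole P17 SOX9 list, so the 8 of 9 cannot be set against it. The members' share of P17 peaks without a P2 partner was near that of the whole list, where 41.4% of P17 SOX9 peaks overlapped no P2 peak. When the question was narrowed to within 1 kb of a RefSeq start, which the table gives for 7 members, SOX9 lay at 0 of them at P2 and at 1, Ctbp2, at P17. The share over all genes with a RefSeq start was 23.2% at P2 and 10.5% at P17, so the P17 count was near the background. H3K4me3 lay at 6 of the 7 at P2 and at all 7 at P17, where the shares over all such genes were 45.1% and 46.3%.

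By presence or absence in all 8 lists the members fell into 7 patterns. Bsn and Rims2 shared theirs (SOX9 and both marks at both ages, no SOX8) with each other, and each had 310 genes of the same pattern besides itself, 1.42% of all. The pattern of Pclo, Cacna1f and Syp, both marks and no SOX factor, was held, for each of them, by 3419 other genes, 15.6% of all. At P2, Cacna1f had this pattern only through the peaks at the start of Syp. Peaks at neighbours entered other patterns too. The P2 H3K4me3 and P17 SOX8 peaks of Cabp4 lay at Coro1b. At Cacna2d4 the P2 H3K4me3 and SOX9 peaks held the start of Lrtm2. The P2 SOX9 peaks of Bsn and Unc13b held starts of Apeh and Fam214b. The pattern of Unc13b was held by 1689 other genes, 7.72% of all, and that of Ctbp2, a peak in every list, by 1382, 6.31% of all. That of Cacna2d4 was held by 250 other genes, that of Stx3 by 291 and that of Cabp4 by 175. These are counts of genes with like patterns and say nothing of shared control.

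The other 36 genes of a list of synapse genes, given here for comparison, were all found in the gene table. An H3K4me3 peak lay at 19 of them at P2 and at 29 at P17, with a peak at P17 alone at 11 and a peak at P2 alone at 2. The shares over all genes were 49.3%, 50.9%, 7.51% and 4.74% in that order. The counts for P2 and for P2 alone were near their shares. By role, H3K4me3 was present at 4 of 6 active zone genes at P2 and 5 at P17, at 3 and 4 of 4 calcium channel genes, at 6 and 9 of 10 vesicle and release genes, at 4 and 7 of 9 genes of the cleft and the postsynaptic side, and at 2 and 4 of 7 genes of conventional synapses. SOX9 lay at 13 of the 36 at P2 and at 10 at P17, and SOX8 at 7 and 8. Over all genes the shares were 27.7% and 15.7% for SOX9, and 15.1% and 13.0% for SOX8. The P2 counts were not far above these shares. The genes with a SOX8 or SOX9 peak at P17 were Ppfia3, Rims3, Slc17a7, Vamp2, Cplx3, Cplx4, Syt1, Rab3a, Elfn1, Dlg4, Cplx2 and Unc13a. Unc13a, a Munc13 gene like Unc13b, had the pattern of Cacna2d4 in all 8 lists, and none of the 36 had that of Bsn. Slc17a7, the vesicular glutamate transporter of photoreceptors, had a SOX9 peak of 8021 bp and an H3K4me3 peak of 10260 bp at P17 and neither at P2. Cplx3, a complexin of ribbon synapses, had a P17 SOX9 peak of 16498 bp, which ranked 26 in its list, close to the 17498 bp of the inner Ctbp2 start.

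Markers of some cell types in whole retina differed between the ages in the same lists, and others did not. Over all genes, H3K4me3 lay at 49.3% at P2 and 50.9% at P17, and SOX9 at 27.7% and 15.7%. H3K4me3 lay at 5 of 8 rod photoreceptor genes at P2 and at 8 of 8 at P17, and SOX9 lay at 2 and at 8 of them. For bipolar cell genes, H3K4me3 lay at 2 of 6 and then 4 of 6, and SOX9 at 2 and 2, with Grm6 and Trpm1 counted among the synapse genes too. For Müller glia genes, H3K4me3 lay at 4 of 5 and then 2 of 5, and SOX9 at 4 and then 0. Of 4 progenitor and cycling genes, H3K4me3 and SOX9 each lay at 4 at P2 and at 0 at P17. Amacrine and horizontal cell genes carried H3K4me3 at 5 and 6 of 7 and SOX9 at 5 and 1. Of 4 ganglion cell genes, H3K4me3 lay at 0 and 1, and microglia and vessel genes had none in either list. None of the 10 members is in a marker list. The part of this difference between the ages in the values at the ribbon synapse genes was not tested.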

How the data were processed

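CUT&RUN of mouse retina at P2 and P17 is held in 8 peak lists, 1 for each age and target. Per the submitters' processing notes, Bowtie2, SEACR and GRCm38 were used; versions, thresholds and the way libraries were combined into a list are not given in the sources used here. The lists deposited by the authors give an interval per peak and a score that is 0 for every peak, so peaks carry no height or error, and how strong a peak is could not be read. Depth per sample is unknown, and 4 IgG libraries were not analysed here.

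Peaks were joined to RefSeq protein-coding genes of GRCm38.p6 with 5 kb flanks by an overlap of at least 1 bp, with Python 3.11.15, pandas 2.3.3 and numpy 2.4.6. The interval code was tested on simulated data. Coordinates are 1-based. Widths were ranked within a list, ages were paired by overlap, and cover is the share of a window under the union of peaks. The gene table has no strand or exons, so exonic and intronic positions were not assigned, and strand comes from the promoter table. No test was run. The 10 members and all gene lists were chosen with earlier results of these data known. All members are named. Of the other synapse genes, those with the pattern of Bsn or Cacna2d4 in all lists or with a SOX peak at P17 are named. Alternatives tried were flanks of 0, 1 and 50 kb, peak centres, gene starts or ends only, an overlap of 50% of the shorter peak, lists of equal length, peaks of at least 1 kb and the wider 50% of each list.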

Additional observations from a re-analysis of the deposited data

How the results depend on the processing

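Of 113 alternative values for 29 results, 100 were close to the value reported and 13 moved. A count was called close when it stayed within a set fold of the reported count. A share of peaks was called close when it lay inside the 95% interval around the reported share. Such intervals were wide, from 2.5% to 100% for the 1 SOX8 peak at P2, so these shares could hardly move. Within 1 kb of a RefSeq start, which leaves 7 members, the members with a peak numbered 0 for SOX8 at each age, 0 for SOX9 at P2 and 1 at P17, 6 for H3K4me3 at P2 and 6 for H3K27ac at P2. For SOX9 at P2, the reported 5 of 10 members stood against 27.7% of all genes. The 0 of 7 stood against 23.2% of genes with a RefSeq start, so the count moved from above its background to below it. The RefSeq setting also drops Rims2, Cacna2d4 and Cabp4, which carry SOX peaks. With the wider 50% of each list, SOX8 at P17 lay at 1 member and H3K4me3 at P2 at 6. Within 1 kb of either gene end, a setting chosen after seeing the data, H3K4me3 at P2 lay at 6, and the SOX counts stayed close: SOX8 at 1 and 2 members and SOX9 at 4 and 5 (P2 and P17). With flanks of 50 kb, SOX8 at P2 lay at 3 members, and among the other synapse genes SOX8 lay at 14 at each age and H3K4me3 at P2 at 30. The members with H3K4me3 at P17 alone numbered 6 to 7 under the alternatives run. No paired analysis was possible because no list holds values per replicate, and leaving out a replicate was not possible for the same reason. Peaks have no height, so a weak and a strong peak count alike.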
